A study of Mus musculus with 6 samples.

Results

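The genes described here are the marker genes of blood vessel cells in the hippocampus: 26 genes of endothelial cells, 6 of pericytes and 3 of smooth muscle cells. A gene was read from 1 probe set, a group of probes against its transcript: among those that the annotation ties to that symbol alone, the brightest on average across the 6 arrays. By this rule 34 of the 35 listed genes were measured, 25 endothelial, 6 pericyte and 3 smooth muscle, out of 18193 genes on the array. Ly6c1 was not measured under the rule, because its probe set is shared with Ly6c2 in the annotation.

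Expression was compared between 3 wild type and 3 L26 hippocampal samples, each on its own Affymetrix mouse genome array. The submitters describe the samples as independent biological replicates. L26 mice are homozygous for a daDREAM transgene, a dominant active form of the calcium-regulated repressor DREAM (gene Kcnip3), and the controls are wild type littermates. All animals were adult males on a C57B6xCBA background. L26 is 1 of the transgenic lines, so a difference specific to this line cannot be told apart from one due to daDREAM, and the promoter that drives the transgene is not given in the sources used here. The comparison asks which basal transcript levels differ in the presence of daDREAM, and no stimulus was applied.

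Brain capillaries are tubes of endothelial cells joined by tight junctions, which together form the blood-brain barrier. Transporters in the endothelial membrane carry glucose, amino acids and lipids across it. VEGF and angiopoietin receptors maintain the endothelium, pericytes wrap the capillary wall and depend on PDGF signalling through Pdgfrb, and contractile smooth muscle cells surround arterioles. In whole tissue, more cells of a type and more RNA per cell cannot be told apart, so each value below is a level in hippocampal RNA and not in an isolated vessel.

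In L26 hippocampus 10 of the 34 measured vascular genes rose, none fell and 24 did not pass (limma, adjusted p under 0.05 over all 18193 genes). At an unadjusted p under 0.05, 15 were higher and 0 lower, against 11.3% and 9.03% of all genes. By the adjusted p, 2.63% of all genes rose and 2.57% fell (5.19% in either direction), and with each array centred on its median 382 of all genes rose and 690 fell, against 478 and 467, while the same number of vascular genes rose. The genes that rose were the endothelial Cldn5, Kdr, Flt1, Tek, Esam, Emcn and Sox18, the pericyte genes Pdgfrb and Abcc9, and the smooth muscle gene Acta2. The median difference was 0.13 over the 34 genes and 0.01 over all genes on the log2 scale, the scale of every value and difference below. An alternative that drops the dimmest 40% of probe sets kept 31 of the 34, without Tie1, Anpep and Myh11. By cell type, 7 of 25 endothelial genes rose (median difference 0.12), 2 of 6 pericyte genes (median 0.31) and 1 of 3 smooth muscle genes (median 0.12). The endothelial count was 4 without wild type replicate 2, L26 replicate 2 or L26 replicate 3, the pericyte count 1 without L26 replicate 2, and the smooth muscle count 0 without L26 replicate 2 or 3. The mean was higher in L26 for 30 of the 34 genes, against 53.1% of all genes. For 17 of the 34 genes (50%) every L26 array lay above every wild type array, which was the case for 13.0% of all genes. Slc2a1 was the only 1 of the 34 with every L26 array below (11.0% of all genes).

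**Figure D1:**
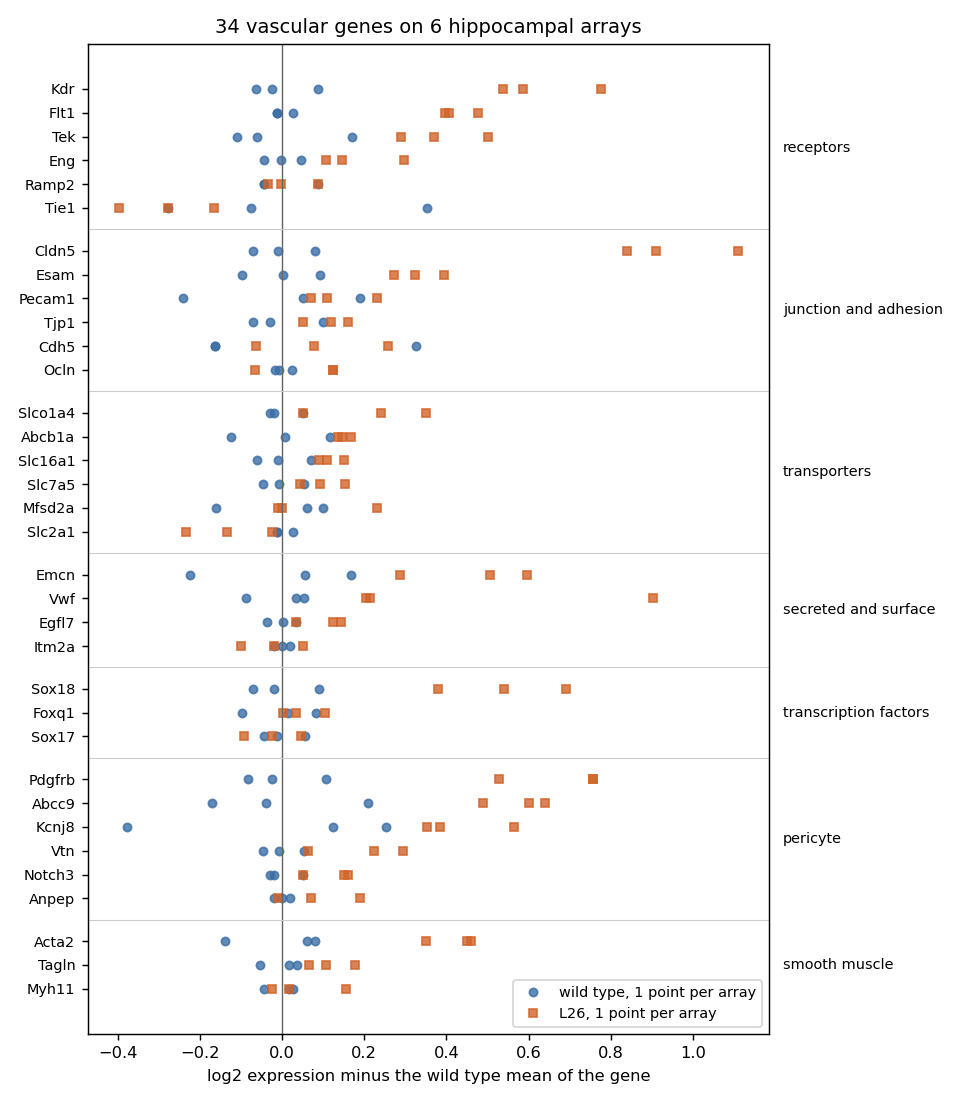
Log2 expression of the 34 measured vascular genes on each array, as the difference from the gene's wild type mean (horizontal axis), with 1 blue circle per wild type array and 1 orange square per L26 array. The L26 squares lie clear to the right of the wild type circles for Cldn5, Kdr, Flt1, Sox18, Pdgfrb and Abcc9, while those of Slc2a1 lie to the left and those of Itm2a, Ramp2 and Sox17 are mixed with the circles.

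The promoters of the genes that rose are shown because DREAM acts on DNA: it binds the downstream regulatory element (DRE), whose core is GTCA. Windows of the RefSeq promoter table (GRCm38.p6) were read for 22 of the measured genes, among them 7 of the 10 that rose. Pdgfrb, which rose, was left out of this reading, so the counts of windows below do not cover it. The 250 bases before the start are given for the endothelial genes Cldn5, Kdr and Flt1, the pericyte gene Abcc9 and the smooth muscle gene Acta2, 5′ to 3′ on the strand of the gene, with GTCA on either strand (GTCA or TGAC) in capitals.
Cldn5 (chr16:18776597-18776846, plus strand): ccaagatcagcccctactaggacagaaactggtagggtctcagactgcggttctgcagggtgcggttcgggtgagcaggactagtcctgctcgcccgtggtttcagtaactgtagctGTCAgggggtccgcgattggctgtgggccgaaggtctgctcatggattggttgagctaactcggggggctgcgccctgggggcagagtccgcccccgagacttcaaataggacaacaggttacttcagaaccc
Kdr (chr5:75978456-75978705, minus strand): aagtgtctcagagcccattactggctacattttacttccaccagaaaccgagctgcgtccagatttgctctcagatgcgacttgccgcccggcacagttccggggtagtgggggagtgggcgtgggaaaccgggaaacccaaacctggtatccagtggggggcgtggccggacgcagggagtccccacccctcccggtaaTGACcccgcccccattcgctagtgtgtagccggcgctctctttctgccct
Flt1 (chr5:147726012-147726261, minus strand): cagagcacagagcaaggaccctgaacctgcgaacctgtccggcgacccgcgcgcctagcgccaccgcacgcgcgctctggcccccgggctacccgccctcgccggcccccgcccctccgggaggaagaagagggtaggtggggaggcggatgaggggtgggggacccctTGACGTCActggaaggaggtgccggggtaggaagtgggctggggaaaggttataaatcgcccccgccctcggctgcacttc
Abcc9 (chr6:142702275-142702524, minus strand): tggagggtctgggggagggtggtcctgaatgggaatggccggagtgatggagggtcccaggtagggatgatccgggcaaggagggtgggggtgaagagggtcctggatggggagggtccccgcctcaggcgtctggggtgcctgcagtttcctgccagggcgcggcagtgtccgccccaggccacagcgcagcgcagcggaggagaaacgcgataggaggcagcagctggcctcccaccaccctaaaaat
Acta2 (chr19:34255374-34255623, minus strand): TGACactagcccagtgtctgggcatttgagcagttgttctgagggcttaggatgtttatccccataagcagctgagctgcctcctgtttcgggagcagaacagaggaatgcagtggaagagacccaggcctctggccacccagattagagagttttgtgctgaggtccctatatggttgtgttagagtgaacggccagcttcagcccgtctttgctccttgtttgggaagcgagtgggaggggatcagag
Of these windows Abcc9 has no match, Cldn5, Kdr and Acta2 have 1 each and Flt1 has 2, which lie end to end in the palindrome TGACGTCA. That palindrome is the consensus cAMP response element, bound by CREB factors, and 1.55% of all 32851 windows of the same length that were read hold it. A DRE core was found in 6 of the 7 windows of genes that rose, in 16 of 18 windows of genes that did not pass (some genes have several starts) and in 80.2% of all windows. The letters GGAA, the core bound by ETS factors of endothelium, were found on either strand in 6 of the 7 windows of genes that rose, with none in that of Cldn5, and in 93.4% of all windows. ACAAT, a SOX factor core, was found in 2 of the 7 windows, those of Tek and Emcn, and in 27.7% of all windows. These are matches of letters, in windows that share short motifs at high rates, and were not tested. The windows end at the start of the gene, so DRE cores after the start were not searched.

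Among the endothelial receptor genes 3 of 6 rose. Kdr encodes VEGF receptor 2, the main signalling receptor for VEGF. It read 7.79, 7.64 and 7.68 on the wild type arrays and 8.29, 8.24 and 8.48 on the L26 arrays. All L26 values lay above all wild type values, with a difference of 0.63 (SE 0.07, 1.55-fold, adjusted p = 0.0025). Flt1 encodes VEGF receptor 1, which also binds VEGF and limits how much of it reaches Kdr. Its values were 8.78, 8.74 and 8.74 in wild type and 9.23, 9.16 and 9.15 in L26, with little spread in either group. The difference was 0.43 (SE 0.05, adjusted p = 0.00263). Tek, the angiopoietin receptor Tie2, rose from 7.72, 7.49 and 7.44 to 7.84, 8.05 and 7.92 (0.39, SE 0.09, adjusted p = 0.0356). The lowest L26 array of Tek was close to the highest wild type array, and the call was lost when any array but wild type replicate 1 was left out (differences from 0.33 to 0.43 in these fits). Tie1, the partner receptor of Tek, ran the other way in its means, with 6.17, 6.80 and 6.37 in wild type and 6.05, 6.28 and 6.17 in L26. These values overlapped (difference -0.28, 95% interval -0.60 to 0.04, adjusted p = 0.306), and the difference was -0.10 without wild type replicate 2. Eng, the endothelial co-receptor for TGF-beta and BMP ligands, had 0.18 (SE 0.06, adjusted p = 0.144) with no overlap between groups. Ramp2, the adrenomedullin receptor subunit, had 0.02 (95% interval -0.12 to 0.15), or -0.01 with each array centred on its median.

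Of the 6 junction and adhesion genes, Cldn5 and Esam rose. Cldn5 encodes claudin-5, the claudin that seals brain endothelial tight junctions. Its values were 9.18, 9.09 and 9.03 in wild type and 10.01, 10.21 and 9.94 in L26. The groups were far apart, and the difference of 0.95 (SE 0.08, 1.94-fold, adjusted p = 0.000334) was the highest among the 34 genes. Esam, an endothelial adhesion molecule of tight junctions, went from 8.36, 8.46 and 8.55 to 8.73, 8.85 and 8.78 (0.33, SE 0.06, adjusted p = 0.0221). Its call was lost without wild type replicate 1 or 2 or without L26 replicate 2 or 3, with differences from 0.28 to 0.33 in these fits. The 4 others did not pass. Ocln, occludin, which spans the junction next to claudins, had 0.06 (95% interval -0.08 to 0.20), and Tjp1, the scaffold ZO-1 beneath it, 0.11 (-0.03 to 0.25). Cdh5, the VE-cadherin of adherens junctions, read 7.00, 7.00 and 7.49 in wild type and 7.10, 7.24 and 7.42 in L26, and Pecam1, which joins endothelial cells to each other, had 0.14 (-0.09 to 0.37). The intervals of Cdh5 and Pecam1 are wide, since their wild type SDs (0.28 and 0.22) were above that of Cldn5 (0.08). The other Ocln probe set had a larger difference of 0.25 (95% interval 0.08 to 0.43, all L26 arrays above), so the interval of the first does not bound the gene.

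None of the 6 transporter genes passed in limma, and 1 of them, Slco1a4, had an unadjusted p under 0.05. Slc2a1, the glucose transporter GLUT1 of the barrier, read 11.08, 11.12 and 11.08 in wild type and 11.07, 10.96 and 10.86 in L26. All L26 values were the lower ones, by a small margin (difference -0.13, 95% interval -0.27 to 0.01, adjusted p = 0.288). Slco1a4, an organic anion transporter, read 9.95, 10.03 and 9.96 in wild type and 10.03, 10.33 and 10.22 in L26, with the groups touching at 10.03. Its difference was 0.21 (SE 0.08, adjusted p = 0.16), and without L26 replicate 1 it passed with 0.30 (adjusted p = 0.0487). The efflux pump gene Abcb1a had 0.15 (95% interval -0.00 to 0.30, or 0.09 without wild type replicate 2), the monocarboxylate transporter gene Slc16a1 0.12 (-0.01 to 0.24), the large neutral amino acid transporter gene Slc7a5 0.10 (-0.03 to 0.22) and the lysolipid transporter gene Mfsd2a 0.07 (-0.13 to 0.27). Several of these genes, Slc2a1, Slc16a1 and Slc7a5 among them, are also expressed outside vessels in brain. For Slc2a1, Slc16a1, Slc7a5 and Mfsd2a a difference as large as that of Kdr or Flt1 lies outside the interval. Whether transporters and receptors differ from each other as groups was not tested.

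Of the secreted and surface genes, Emcn rose, with the lowest margin of the 10 genes. Emcn encodes endomucin, an endothelial surface sialoglycoprotein. It read 7.11, 7.39 and 7.50 in wild type and 7.84, 7.62 and 7.93 in L26 (0.46, SE 0.11, adjusted p = 0.047). The groups did not overlap, but the call was lost with array weights and, in 5 of the 6 fits on fewer arrays, without wild type replicate 1 or 2 or any of the L26 replicates (differences 0.35 to 0.55). Adjusted over all probe sets, its p was 0.0523. Vwf, von Willebrand factor of endothelial storage granules, read 6.57, 6.71 and 6.69 in wild type and 6.86, 6.87 and 7.56 in L26. The third L26 array stands apart, and the difference was 0.44 (SE 0.16, adjusted p = 0.174), or 0.21 without that array. Egfl7, a secreted endothelial matrix protein, had 0.10 (95% interval -0.02 to 0.22) and Itm2a, a membrane protein enriched in brain endothelium, -0.02 (-0.15 to 0.10).

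Among the transcription factor genes Sox18 rose, and Sox17 did not pass. Both belong to the SOXF family, which directs endothelial and arterial fate. Sox18 went from 8.14, 8.25 and 8.09 to 8.54, 8.70 and 8.85, all L26 arrays above all wild type arrays (0.54, SE 0.08, 1.45-fold, adjusted p = 0.00836). Sox17 read 7.84, 7.91 and 7.81 in wild type and 7.90, 7.83 and 7.76 in L26, with mixed order (difference -0.02, 95% interval -0.15 to 0.11). Foxq1, a forkhead factor of brain endothelium, had 0.05 (-0.09 to 0.19).

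**Figure D2:**
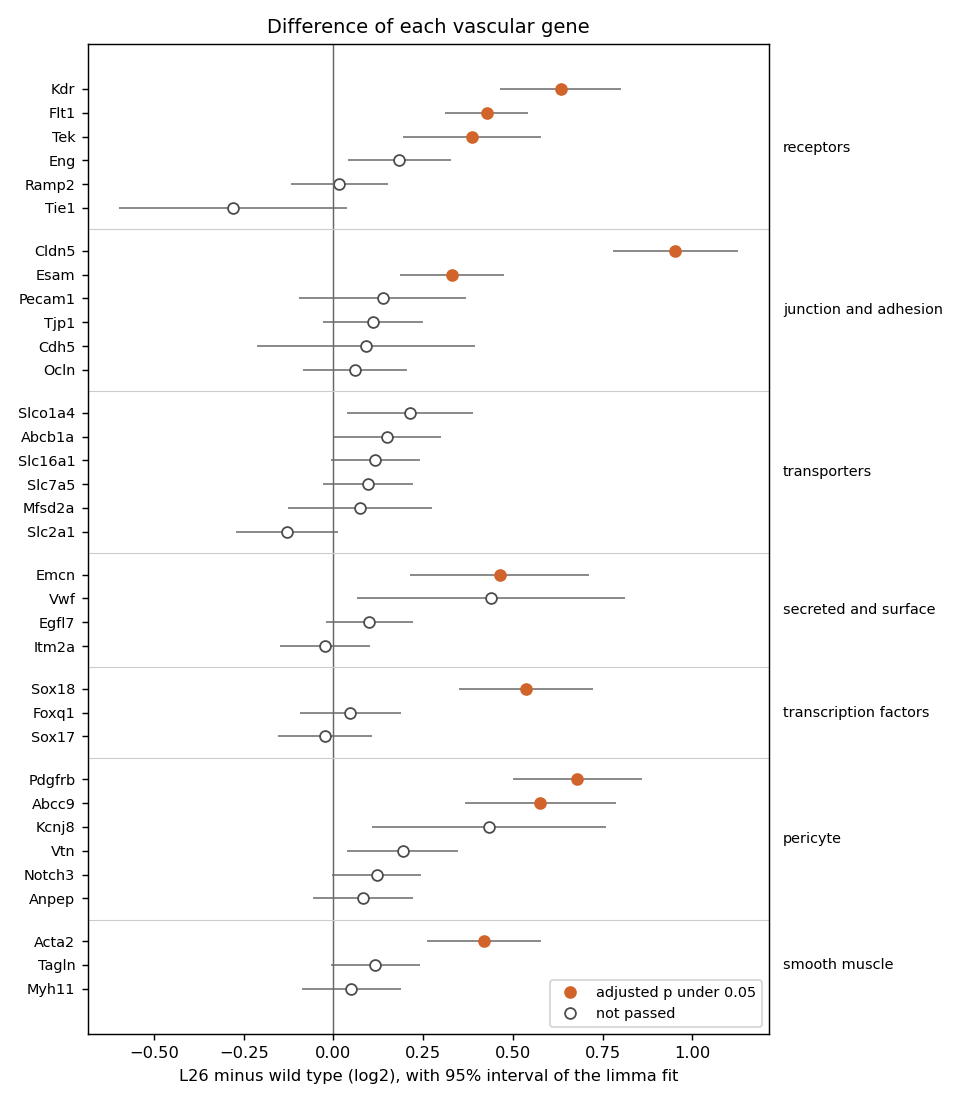
Difference of each of the 34 vascular genes between L26 and wild type on the log2 scale (horizontal axis, points) with its 95% interval from limma (lines), 3 arrays per group. Filled points have an adjusted p under 0.05 over all genes: all 10 lie to the right of 0, from 0.33 for Esam to 0.95 for Cldn5, and all 6 transporter points are open.

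Of the 6 pericyte genes 2 rose, and all 6 had a higher mean in L26 (53.1% of all genes did). Pdgfrb encodes the PDGF receptor beta that pericytes need for recruitment and survival. It read 8.52, 8.46 and 8.65 in wild type and 9.07, 9.30 and 9.30 in L26, well apart (0.68, SE 0.08, 1.60-fold, adjusted p = 0.00238). Abcc9 and Kcnj8 encode the SUR2 and Kir6.1 subunits of the ATP-sensitive potassium channel of pericytes, and RefSeq places the genes next to each other on chromosome 6, with no coding gene between them. Abcc9 went from 7.55, 7.93 and 7.68 to 8.32, 8.36 and 8.21 (0.58, SE 0.09, adjusted p = 0.0102). Kcnj8 read 7.03, 7.53 and 7.66 in wild type and 7.97, 7.79 and 7.76 in L26. The groups did not overlap, but the wild type arrays spread widely (SD 0.33), and the difference of 0.43 (SE 0.14) did not pass (adjusted p = 0.128) and was 0.24 without wild type replicate 1. Vtn, vitronectin, a matrix protein made by brain pericytes, had 0.19 (SE 0.07, adjusted p = 0.152) and its groups barely separated, at 10.72 and 10.73. Notch3, the Notch receptor of mural cells, had 0.12 (95% interval -0.00 to 0.24), and Anpep, the aminopeptidase CD13, 0.08 (-0.06 to 0.22). The Abcc9 and Notch3 values come from probe sets ending in _s_at, which may also bind related transcripts. With such probe sets removed Abcc9 had 0.16 (adjusted p = 0.215) and Notch3 -0.03. The Abcc9 call was also lost without L26 replicate 2 (0.55, adjusted p = 0.0501).

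Of the 3 smooth muscle genes Acta2, the alpha actin of contractile cells, rose. It read 9.10, 9.30 and 9.32 in wild type and 9.59, 9.70 and 9.69 in L26, without overlap (0.42, SE 0.07, adjusted p = 0.012). Its probe set also ends in _s_at. With that kind removed Acta2 had -0.04 (adjusted p = 0.703), measured on a probe set that averaged 5.58 in wild type, below the lower quartile of every array (5.93 to 5.96), and the mean of its 3 probe sets had 0.11 (adjusted p = 0.244). The call was lost as well without L26 replicate 2 or 3 (adjusted p = 0.057 and 0.0582), with differences of 0.40 and 0.41. Myh11, the smooth muscle myosin heavy chain, read 6.46, 6.39 and 6.45 in wild type and 6.59, 6.45 and 6.41 in L26, which overlap (0.05, 95% interval -0.09 to 0.19). Tagln, the actin-binding transgelin, had 0.12 (-0.01 to 0.24, adjusted p = 0.276).

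The probe sets that the rule did not take are a further measurement of 17 of the genes on the same arrays. Of these 24 probe sets 1 rose, 0 fell by limma (0 were lower at an unadjusted p under 0.05 as well, against 7.66% of all probe sets) and 14 had a higher mean. Among all 45037 probe sets 1.98% rose, 1.94% fell and 3.92% did either. The 1 that rose was of Flt1 (0.44, SE 0.07, limma adjusted p = 0.00966 over probe sets). The remaining Flt1 probe sets had 0.22 and 0.25, each with all L26 arrays above wild type. Flt1 was thus higher on all of its probe sets. For Pdgfrb the other probe set had 0.12 (SE 0.08, adjusted p = 0.504), with a wild type mean of 8.10 that lies above the array medians (7.27 to 7.32), against 0.68 on the brightest and 0.40 for the mean of the 2 (adjusted p = 0.00808). For Abcc9 the others had 0.16 and 0.23 (0.32 for the mean of all 3), and for Acta2 -0.05 and -0.04. Cldn5, Kdr, Tek, Esam, Emcn and Sox18 have 1 probe set each and no such comparison. Slc2a1 had a negative difference on all of its probe sets (-0.13, -0.14 and -0.06), none past the threshold, and Egfl7 a positive one on all (0.10 to 0.22). For Ocln, Vtn and Sox17 the other probe set gave the larger difference (0.25, 0.29 and 0.18), and none of these passed.

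**Figure D3:**
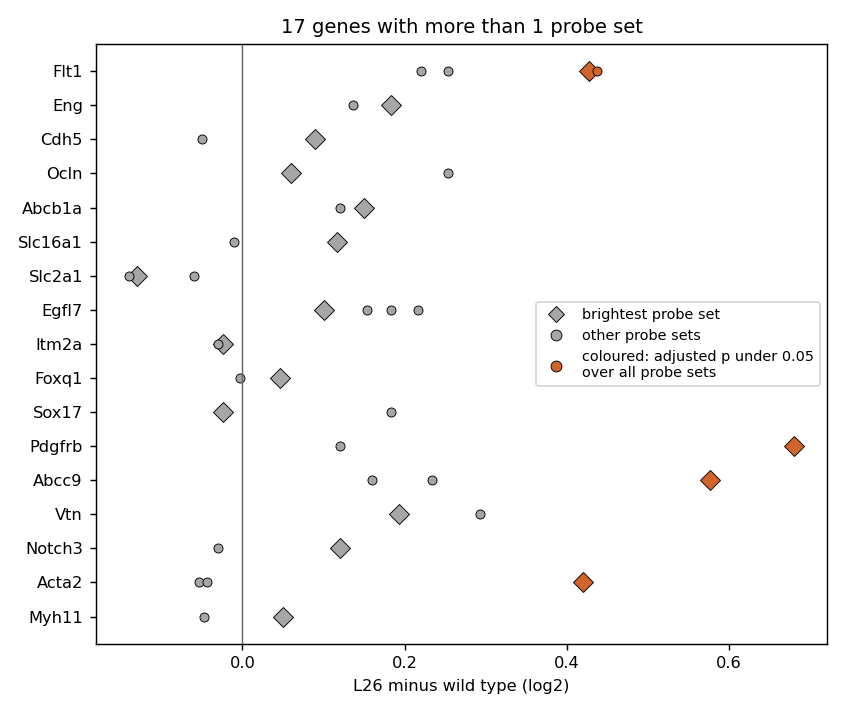
Differences between L26 and wild type on the log2 scale (horizontal axis) for every probe set of the 17 vascular genes with more than 1. Diamonds are the brightest probe set of a gene and circles the others, and colour marks an adjusted p under 0.05 over all probe sets. The circles of Pdgfrb, Abcc9 and Acta2 lie far left of their diamonds, while 1 circle of Flt1 lies beside its diamond.

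The wider vascular programme was read from 11 lists of ligands, receptors, junction, transport, mural cell and matrix genes that hold none of the 34. Of 168 listed genes 164 were measured, of which 16 rose, 3 fell and 145 did not pass. Among all genes 2.63% rose and 2.57% fell, the shares beside which the counts of each list below stand. These 19 calls numbered 11 and 12 without wild type replicate 1 or 2, and 6 and 7 without L26 replicate 2 or 3. Among 21 further endothelial genes Cd93 (0.50, SE 0.09) and the adhesion receptor gene Adgrl4 (0.33, SE 0.05) rose and Cd34, a sialomucin of endothelium and progenitors, fell by 0.44 (SE 0.09). Their median of 0.01 equals that of all genes to 2 decimals, and 11 of the 21 had a higher mean, against 53.1% of all genes. The other Cd93 probe sets ranged from -0.01 to 0.27, and the other of Adgrl4 had 0.11.

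In the VEGF and angiopoietin list the ligand gene Vegfa rose by 0.25 (SE 0.05), while Vegfd, a further VEGF family ligand, fell by 0.42 (SE 0.09) and the semaphorin receptor gene Plxnd1 fell by 0.62 (SE 0.10), among 13 measured. The other Vegfd probe sets had -0.01 each, and the other of Vegfa 0.11. None of 12 Notch genes passed in limma (1 had an unadjusted p under 0.05, Hey1, at 0.16). Of 15 genes of Wnt signalling, which induces the barrier, the ligand gene Wnt7a (0.35), the receptor gene Fzd6 (0.35) and Apcdd1, an inhibitor that Wnt signalling induces (0.46), rose. All 5 other Apcdd1 probe sets had positive differences (0.18 to 0.53), while those of Fzd6 had -0.03 and 0.07 and those of Wnt7a 0.10 and 0.00. Of 16 PDGF, TGF-beta and S1P genes 3 rose: S1pr3, a sphingosine phosphate receptor (0.45, SE 0.06), and Id3 (0.43, SE 0.07) and Id1 (0.49, SE 0.11), which BMP and TGF-beta signals induce. The other S1pr3 probe sets had 0.35 and 0.14.

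Of 15 further pericyte genes Rgs5, a G protein regulator that marks pericytes (0.62, SE 0.06, 0.27 to 0.82 on its other probe sets), and the adhesion gene Mcam (0.43, SE 0.08) rose. The median of that list was 0.20, and 13 of its 15 genes had a higher mean, against 53.1% of all genes. In 9 of the 15 all L26 arrays lay above wild type, against 13.0% of all genes. Of 17 basement membrane genes the type IV collagen genes Col4a1 (0.33, SE 0.05) and Col4a2 (0.32, SE 0.06) and the nidogen gene Nid1 (0.59, SE 0.13) rose, with a list median of 0.18. Their other probe sets had 0.28 for Col4a1 and 0.23 and 0.03 for Nid1. Only Cgn, cingulin (0.26, SE 0.05), rose among 12 further junction genes, and only Mylk, myosin light chain kinase (0.25, SE 0.06), among 14 further smooth muscle genes. The other probe sets had 0.16 for Cgn and 0.14 and 0.09 for Mylk. None of 16 further barrier transporter genes passed in limma, although 5 were higher at an unadjusted p under 0.05 (as were 11.3% of all genes), with Slco1c1 at 0.29 (adjusted p = 0.0534), and Slc38a5, Slc38a3, Slc16a4 and Slc7a1, which were picked after their values were seen, between 0.16 and 0.43. None of 13 genes of endothelial activation passed either, and at an unadjusted p under 0.05 Nfkbia was lower (-0.30) and Selp, picked after its value was seen, higher (0.17).

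**Figure D4:**
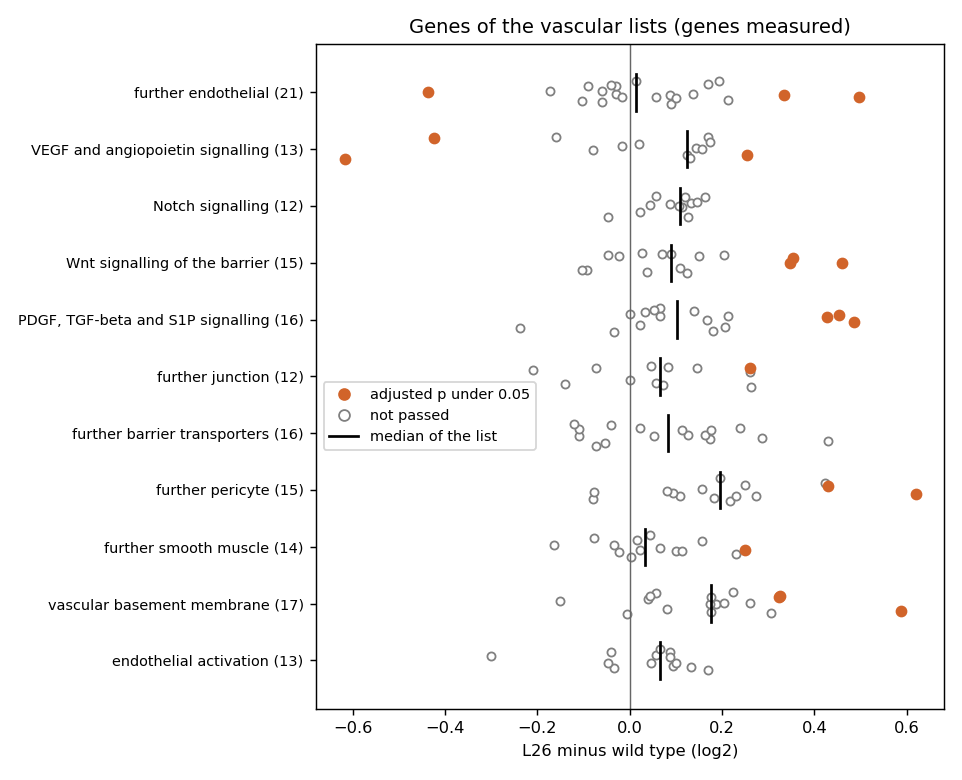
Difference between L26 and wild type on the log2 scale (horizontal axis) of every measured gene in 11 vascular lists, 1 point per gene, with vertical bars at the list medians and filled points where the adjusted p was under 0.05. The 3 filled points left of 0 are Plxnd1, Cd34 and Vegfd, and the Notch, barrier transporter and activation lists have no filled point.

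Markers of other cells were read on the same arrays, since other tissue parts could move with the vascular genes. The mean of the 25 endothelial genes lay between 8.58 and 8.61 in wild type and between 8.76 and 8.83 in L26. That of the 6 pericyte genes was 7.83 to 8.01 against 8.25 to 8.30, and that of the 3 smooth muscle genes 7.85 to 7.90 against 8.07 to 8.09. Oligodendrocyte markers moved the same way: 11 of 15 rose, led by Mal, Olig2, Cnp and Mobp (0.66, 0.33, 0.41 and 0.41), with a mean of 10.88 to 10.97 against 11.14 to 11.37. Of the hippocampal neuron markers 5 of 11 rose (Bok, Fibcd1, Lct and C1ql2 first), and the list had a mean of 9.95 to 9.97 against 10.19 to 10.25. In that list 2 genes had a lower mean, Dsp (-0.17, all L26 arrays below, adjusted p = 0.137) and Wfs1 (-0.10), both named after their values were seen. Leptomeningeal markers overlapped, at 8.23 to 8.58 against 8.55 to 8.83, with Col3a1 and Slc6a13 up among 11. Their list mean differed by 0.31, against 0.20 for the endothelial genes, and 10 of the 11 had a higher mean (53.1% of all genes did). Slc6a13 had 0.45 (SE 0.08). Col3a1 had 1.01 on its brightest probe set (SE 0.12, limma adjusted p = 0.00219, wild type mean 6.81), more than the 0.95 of Cldn5. The other Col3a1 probe set, with a wild type mean of 4.81, had 0.01. Of all markers of other cells 24 passed, and 11, 14 and 13 without wild type replicate 1, 2 or 3, and 8 and 9 without L26 replicate 2 or 3. The meninges carry vessels of their own, and the part of oligodendrocyte, neuronal and meningeal markers in the vascular result was not tested.

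Other markers overlapped between the groups. Means of astrocyte markers were 11.89 to 11.97 against 11.93 to 11.98 in L26 (S100b fell among 11, by 0.28), and those of microglia 9.47 to 9.63 against 9.58 to 9.63 (among 10, C1qb, C1qc and Csf1r rose and P2ry12 fell). Choroid plexus markers spread widely in both groups (8.73 to 9.50 against 8.73 to 9.63), and of these 10 genes only Kcne2 passed, which fell by 1.73 (SE 0.16). General neuron markers lay at 12.46 to 12.54 against 12.44 to 12.46, with 0 of 10 past the threshold (Rbfox3 and Gad1, picked after their values were seen, were lower at an unadjusted p under 0.05, by limma). Of 7 listed red blood cell genes 3 were measured, and their mean overlapped (6.26 to 6.41 and 6.33 to 6.45). Alas2 was higher at an unadjusted p under 0.05 by limma (0.29, adjusted p = 0.221), with overlapping groups. The 2 others had a lower mean, and the globin gene Hba-a1 lay between 5.09 and 5.31 on all arrays, below their lower quartile. RMA values have no zero, so no marker can be called absent.

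**Figure D5:**
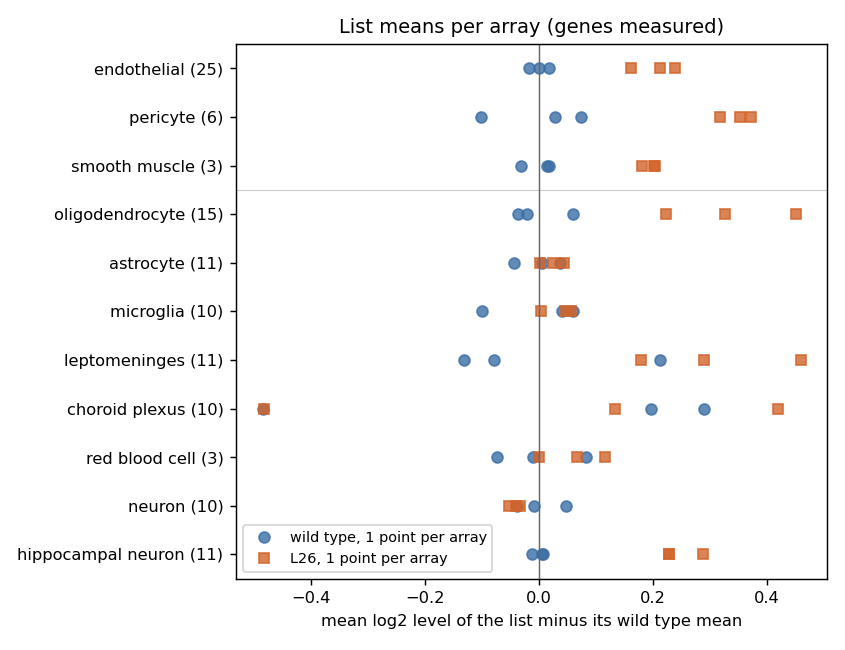
Mean log2 level of each marker list per array, as the difference from the list's wild type mean (horizontal axis), with blue circles for wild type and orange squares for L26 arrays. The 3 vascular lists, the oligodendrocyte list and the hippocampal neuron list have all L26 squares to the right of the wild type circles, while the other lists overlap.

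Over the whole series, arrays of a group correlated at 0.9971 to 0.9979 over all probe sets, and arrays of different groups at 0.9944 to 0.9958. RNA quality, read as the difference of 3' and 5' signals of the actin control, was 0.40 ± 0.01 in wild type and 0.44 ± 0.06 in L26 (SD, n = 3, exact permutation p = 0.3, two-sided, where 0.1 is the smallest value possible). Both Kcnip3 probe sets had a lower mean in L26 (-0.17, adjusted p = 0.208, and -0.32, adjusted p = 0.0393 over probe sets), and whether they detect the transgene is not known here, so they do not check the labels.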

How the data were processed

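Hippocampal RNA of 3 wild type and 3 L26 samples was measured on 6 arrays. The values the authors deposited are on the log2 scale, with 1 value for each probe set on each array, and the tools that the submitters' processing notes name, without versions, are RMA and affy. Such values carry no detection calls and tend to understate fold differences of dim transcripts. Arrays have no sequencing depth, so their number limits the precision.

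After leaving out 64 control probe sets, 45037 remained, 34945 of them with 1 gene symbol in the platform annotation, and the brightest per symbol gave 18193 genes. Symbols were checked through Entrez identifiers against the RefSeq table of GRCm38.p6 (34741 probe sets found, 0 symbols changed). The comparison of L26 with wild type used limma 3.58.1 under R 4.3.3 (lmFit and eBayes, two-sided, no covariate), with Benjamini-Hochberg adjustment over all genes or all probe sets and a threshold of 0.05. SE and 95% intervals come from that fit, where ± is given it is an SD, and the fit was tested on simulated data. The sources used here do not say whether RNA was pooled, or whether samples came from separate litters or days. The p-values measure the spread between these samples only. Members, lists, roles and tests were chosen with earlier results of these data known. Named beyond the members were up to 4 genes past the threshold per list, by p. Where none passed, the 1 with the smallest p was named. Selp, Rbfox3, Gad1, Dsp, Wfs1 and 4 transporter genes were named after their values were seen, and Hba-a1 was named outside this rule. Alternatives were a replicate block, each array left out, repeated quantile normalization, median centring, array weights, a filter on the dimmest 40% of probe sets, eBayes with an intensity trend and robust prior, and other choices of probe set.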

Additional observations from a re-analysis of the deposited data

How the results depend on the processing

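Of the 10 vascular genes that rose, Cldn5, Kdr, Flt1, Sox18 and Pdgfrb passed under every one of 14 alternatives, Pdgfrb with 0.40 in place of 0.68 for the mean of its probe sets, and 9 kept their sign under all of them, the exception being Acta2. Of 473 values of single vascular genes under the alternatives, 436 kept their sign and side of the threshold and 14 changed sign. Of those that kept their sign, 22 lost the threshold and 1 gained it. Only the 10 genes that rose could lose the threshold, so these 22 fell on them and the 436 do not measure how stable their calls were. Acta2 without probe sets ending in _x_at or _s_at lost the threshold too, but is counted among the changes of sign. With the replicate number as a block 5 endothelial, 2 pericyte and 1 smooth muscle genes passed (Tek had an adjusted p of 0.0814 and Emcn of 0.059, limma), and 635 of all genes. The numbers did not pair the samples: the correlations of same-numbered deviations were 0.03, -0.09 and 0.16.

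Without probe sets ending in _x_at or _s_at the pericyte count was 1 and the smooth muscle count 0, Acta2 had -0.0433 and Notch3 -0.03. With the mean of all probe sets the smooth muscle count was 0 and Sox17 had 0.08. With centred arrays Ramp2 had -0.0133. With 1 array left out, the endothelial count ran from 4 to 6, the pericyte count from 1 to 2, the smooth muscle count from 0 to 1, that of all genes from 401 to 696, of the vascular lists from 6 to 19 and of other markers from 8 to 22. In those fits, the sign changed for 6 genes that had not passed: Foxq1 (-0.0017 to 0.0883), Itm2a (-0.06 to 0.015), Mfsd2a (-0.0067 to 0.1233), Myh11 (-0.0033 to 0.0867), Ramp2 (-0.0183 to 0.06) and Sox17 (-0.0583 to 0.0117). The count for the other probe sets was not run under the alternatives that choose probe sets. With 3 arrays per group and no detection calls, small differences of dim genes cannot be resolved. The causes of these changes were not tested. A fit that leaves 1 array out changes both the number of arrays and the samples present.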
